A study of Homo sapiens with 6 samples.

Results

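The SCAN-domain zinc finger genes measured here are the genes whose symbol starts with ZKSCAN or ZSCAN. A gene entered the set when a probe set of the array was assigned to it alone, and the probe set with the highest mean over all 6 arrays stood for the gene. This gave 24 genes of the 15277 genes tested, 7 named ZKSCAN and 17 named ZSCAN. Members were thus chosen by symbol and their probe sets selected on the mean log2 level over all 6 arrays, while the rule did not use the difference between the groups. ZKSCAN8 was already known to differ between the groups when these genes were chosen, so its own difference is given as a description.

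All samples were HFL-1 cells, a fibroblast line from human fetal lung. By the labels, the 3 cultures of the HYAL1-labelled group were infected with a lentivirus carrying the hyaluronidase gene HYAL1. The 3 cultures of the control-labelled group were, again by the labels, infected with the lentiviral vector CON335. Both viruses were added to the cells with polybrene, and RNA of each culture was hybridised to a PrimeView array, whose short probes read each transcript near its 3′ end. The labels call the arrays biological replicates without saying whether they came from separate infections, so the spread between them may be partly technical.

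The labels of the groups could not be taken at face value. HYAL1, the overexpressed gene, had log2 levels of 4.81, 4.82 and 4.67 on the HYAL1-labelled arrays, against 7.48, 7.49 and 7.46 on the control-labelled arrays. The groups did not overlap, and the difference was −2.71 on the log2 scale (SE 0.0455, adjusted p = 7.78e-07, limma). HYAL1 was therefore lower in the group labelled as overexpressing it, and the study's own supplementary table heads the same arrays the opposite way. The groups are called HYAL1-labelled and control-labelled for this reason, and "higher" and "lower" below refer to the labels only. If the labels are exchanged, every sign given here turns.

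SCAN-domain proteins belong to the large class of zinc finger transcription factors, which bind DNA through arrays of C2H2 zinc fingers. The SCAN domain is a leucine-rich stretch near the amino terminus through which these proteins pair with themselves or with each other. Genes named ZKSCAN encode a KRAB domain as well. In many zinc finger proteins this domain recruits the corepressor TRIM28 and, through it, enzymes that set repressive chromatin marks. Whether the members recruit TRIM28 was not measured here. Many family members are little studied. ZKSCAN3 is known as a repressor of autophagy and lysosome genes, and ZSCAN4 and ZSCAN10 are known from mouse embryonic stem cells and early embryos, where they take part in telomere maintenance and pluripotency.

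The arrays were much alike, with medians over all probe sets between 6.97 and 7.01 and correlations of 0.998 to 0.999 within groups and 0.998 between groups. All 10 fibroblast markers lay above the background median, with a median of 11.97 (range 9.60 to 13.81) on the HYAL1-labelled and 12.08 (9.59 to 13.82) on the control-labelled arrays. Of these, 8 were lower on the HYAL1-labelled arrays, 1 of them past the adjusted threshold (limma), beside 1.21% of all genes. Epithelial markers (6 of 9 measured) had medians of 6.40 on the HYAL1-labelled and 6.44 on the control-labelled arrays, endothelial markers (5 of 6) of 6.12 on the HYAL1-labelled and 6.09 on the control-labelled arrays, and leukocyte markers (2 of 6) of 6.58 on the HYAL1-labelled and 6.57 on the control-labelled arrays. Below the background median on all arrays were 3 of the epithelial, 4 of the endothelial and 1 of the leukocyte markers. KRT18, KRT19, TEK and CD68 lay above it on every array, with means of 7.98, 8.95, 8.41 and 7.94 over all arrays. PTPRC, CD14, EPCAM and CDH1 were not analysed here. The array carries 9 background probe sets that match no human transcript, named GC17 to GC25. Their mean on the HYAL1-labelled arrays rose with this number, from 4.52 for GC17 over 6.82 for GC21 to 11.2 for GC25. Their median per array, between 6.69 and 6.90, served as the mark of the background level. The mark is thus the level of GC21 and need not be the background of other probe sets. Each of the 9 read higher in the HYAL1-labelled group, with log2 differences from 0.02 for the dimmest to 0.14 for the brightest.

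Most SCAN-domain genes were close to or under this background mark. Of the 24 genes, 18 lay below the background median on all 6 arrays, 5 lay above it on all 6, and ZSCAN9 fell on both sides. The 5 genes above it were ZKSCAN1, ZSCAN18, ZSCAN30, ZSCAN32 and ZKSCAN5. By comparison, 6177 of the 15277 genes tested lay below the mark on every array. A probe set below the mark is not shown to be without signal, since the 9 background probe sets themselves spread widely, the lowest between 4.46 and 4.57 and the highest between 11.01 and 11.27 on the 6 arrays. The brightness of a probe set also depends on its probes, so that levels of different genes are not amounts of RNA that can be set against each other.

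**Figure D1:**
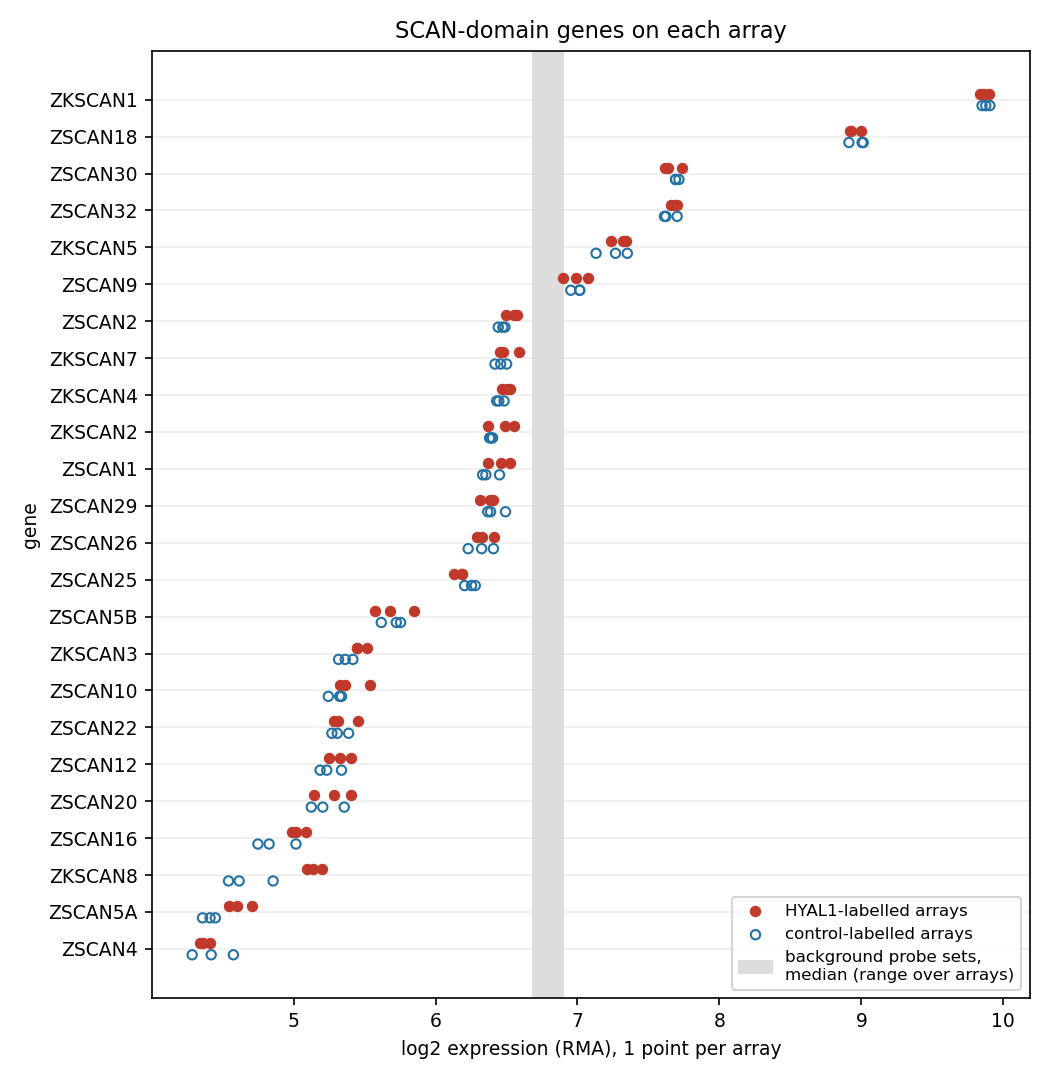
Log2 expression (RMA) of the 24 SCAN-domain genes on each array, 1 point per array, with filled points for the 3 HYAL1-labelled and open points for the 3 control-labelled arrays. The grey band spans the median of the background probe sets over the 6 arrays (6.69 to 6.90), and 18 genes lie to its left on all arrays.

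Between the groups, ZKSCAN8 was the only SCAN-domain gene that passed the test over all genes. Higher values on the HYAL1-labelled arrays were found for 17 of the 24 genes (70.8%), with a median difference of 0.05 on the log2 scale and a range from −0.08 for ZSCAN25 to 0.47 for ZKSCAN8. Over all genes tested, 57.3% were higher on the HYAL1-labelled arrays and the median difference was 0.01. With limma and Benjamini-Hochberg adjustment over all genes at 0.05, 1 member was higher (4.17% of the 24), beside 0.445% of all genes (68 of 15277). No member was lower by this test, beside 1.21% of all genes (185). At an unadjusted p under 0.05, 4 members were higher (16.7%), beside 9.69% of all genes, and 0 were lower, beside 7.72%. The 3 arrays of each group lay fully apart for 4 members that were higher (16.7%), beside 14.1% of all genes, and for 1 that was lower (4.17%), beside 10.3%. The median absolute difference was 0.05 in the family and 0.05 in all genes.

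The higher values were found mainly among the members below the background mark. Of the 18 members below the background median, 15 were higher, with a median difference of 0.06. Of the 5 above it, 2 were higher, with a median of −0.01. Over all genes below the mark, 60.7% were higher and the median difference was 0.02. Over all genes above it, 55.0% were higher and the median was 0.01. Of genes whose symbol starts with ZNF, 56.8% of the 206 below the mark were higher (median 0.0166). Above it this held for 59.9% of 177 (median 0.0137). The background probe sets moved the same way as the dim members. Those with HYAL1-labelled means of 4.52 to 5.97 did so by 0.02 to 0.06, and the larger shifts belonged to brighter ones. The part of the background in these differences was not tested. Since the chip measures RNA of whole cultures, less RNA per cell and fewer cells with the transcript cannot be told apart.

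**Figure D2:**
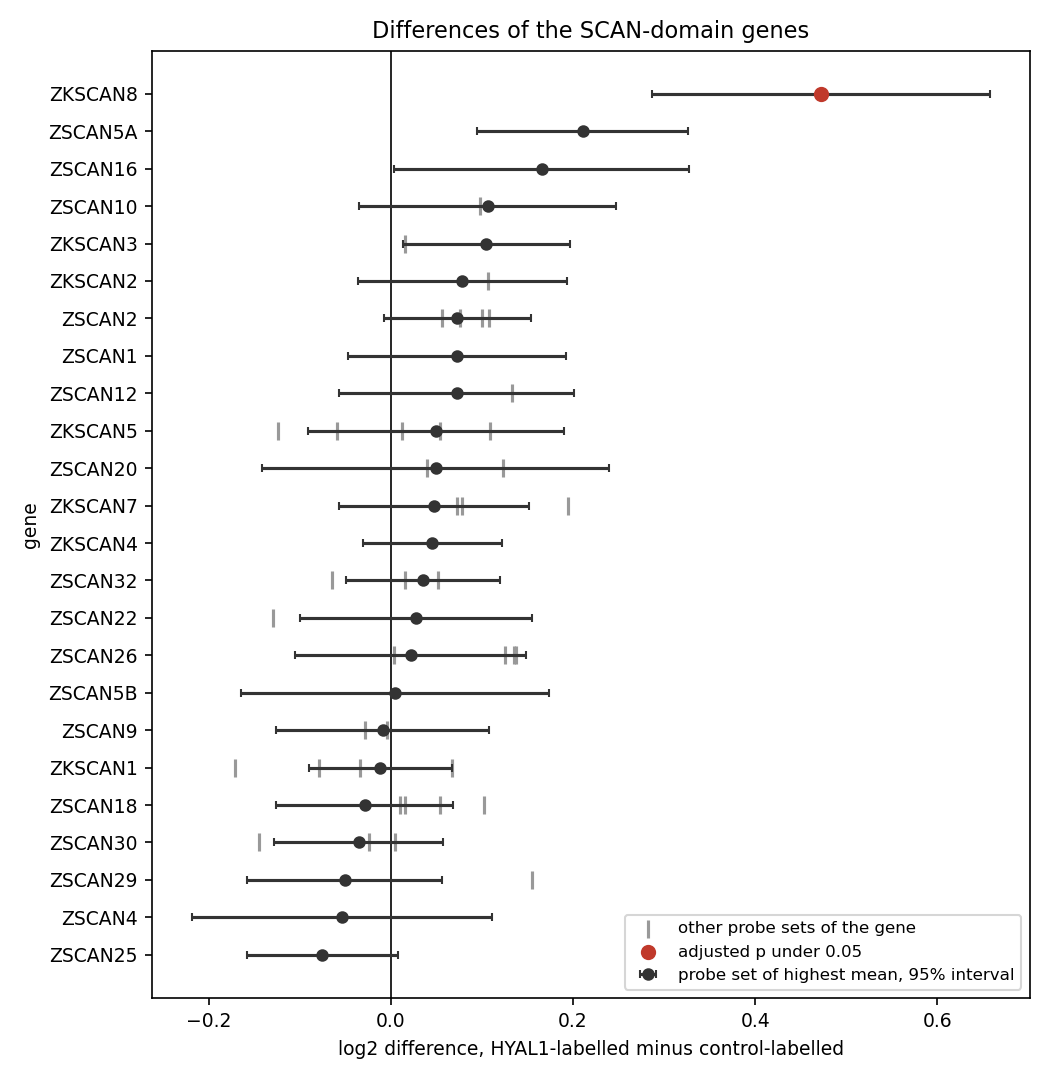
Difference in log2 expression (HYAL1-labelled minus control-labelled) of the 24 SCAN-domain genes, with points for the probe set of highest mean, bars for its 95% interval and grey ticks for the other probe sets of the gene. The interval of ZKSCAN8 (0.29 to 0.66) lies farther from 0 than that of any other member.

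The gene with the largest difference was ZKSCAN8, which encodes a protein with a SCAN domain, a KRAB domain and zinc fingers. Its probe set, the only one of the gene, read 5.10, 5.14 and 5.20 on the HYAL1-labelled arrays, against 4.62, 4.54 and 4.86 on the control-labelled arrays. The lowest HYAL1-labelled array was above the highest control-labelled array, and the control-labelled arrays were spread more widely. The means were 5.14 ± 0.0518 and 4.67 ± 0.164 (SD, n = 3 each), and the difference was 0.47 on the log2 scale (SE 0.0789, 95% interval 0.29 to 0.66, limma adjusted p = 0.0383). All 6 values lay below the background median, and 1 control-labelled array lay below the lowest background probe set, so that no fold change is given. Among all genes the difference ranked at place 12 by absolute size, and among the 1247 genes within 0.25 of its level it ranked at place 2. Of those 1247 genes of like level, 7 were called higher and 1 lower, beside 0.445% and 1.21% of all genes. The call was not firm: leaving out 1 array at a time kept it only without control-labelled replicate 3 (adjusted p = 0.0287), and without any of the other arrays, HYAL1-labelled replicates 1, 2 and 3 and control-labelled replicates 1 and 2, the adjusted p lay between 0.105 and 0.136. A renewed quantile normalization gave a difference of 0.46 with an adjusted p of 0.0552.

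The sequence before the start of ZKSCAN8 is shown because this gene carries the call, together with those of ZKSCAN1 and ZSCAN4, whose probe sets were the brightest and the dimmest of the family. Each is the 250 bases upstream of the first start listed for the gene in the RefSeq table (GRCh38.p14), on the plus strand, at chr6:28141633-28141882 for ZKSCAN8, chr7:100015346-100015595 for ZKSCAN1 and chr19:57668685-57668934 for ZSCAN4. Capitals mark matches, on either strand, to 5 promoter motifs that were searched by their letters.
ZKSCAN8: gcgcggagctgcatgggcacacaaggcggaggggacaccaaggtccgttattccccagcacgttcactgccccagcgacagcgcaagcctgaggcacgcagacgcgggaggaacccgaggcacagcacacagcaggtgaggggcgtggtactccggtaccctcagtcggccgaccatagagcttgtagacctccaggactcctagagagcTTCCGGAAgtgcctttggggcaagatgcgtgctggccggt
ZKSCAN1: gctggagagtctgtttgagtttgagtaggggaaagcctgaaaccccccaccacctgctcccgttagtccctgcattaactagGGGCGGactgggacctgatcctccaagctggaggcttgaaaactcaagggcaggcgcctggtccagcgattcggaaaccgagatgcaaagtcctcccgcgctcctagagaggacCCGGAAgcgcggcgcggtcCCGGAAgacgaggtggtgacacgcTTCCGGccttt
ZSCAN4: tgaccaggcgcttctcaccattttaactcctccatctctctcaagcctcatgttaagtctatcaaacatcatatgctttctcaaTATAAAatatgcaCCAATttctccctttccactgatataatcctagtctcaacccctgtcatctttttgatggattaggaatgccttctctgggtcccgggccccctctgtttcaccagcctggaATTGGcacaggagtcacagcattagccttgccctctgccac

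The capitals before ZKSCAN8 are a pair of overlapping matches to CCGGAA, the core that ETS-family factors bind, with a match on each strand. ZKSCAN8 has another annotated start farther downstream, and the window before that start held none of the 5 motifs. The window of ZKSCAN1 held 3 such cores and a GC box (letters GGGCGG). In contrast, the window of ZSCAN4 held a TATA box (letters TATAAA) and 2 CCAAT boxes, and no ETS core or GC box. A window was found for 21 of the 24 members and not for ZSCAN26, ZSCAN16 and ZKSCAN2, and 9 members had several annotated starts, 34 windows in all. Taking the window listed first for each gene, the ETS core was present in 12 of 21 members (57.1%), beside 14.8% of the 27305 genes in the table, and over all windows it was present in 15 of 34 (44.1%), beside 14.5% of 35116. The GC box was present in 14 first windows (66.7%, beside 42.3%) and in 21 of all windows (61.8%, beside 42.6%). The CCAAT box was present in 7 first windows (33.3%, beside 33.0%) and in 14 of all windows (41.2%, beside 32.0%). The TATA box was found in ZSCAN4 only, 1 of 21 first windows (4.8%, beside 11.1%) and 1 of all 34 (2.9%, beside 10.7%). TGACGT, a part of the cyclic AMP response element, was found in 1 first window (4.8%, beside 7.4%), that of ZSCAN22. Over all windows it was found in 2 (5.9%, beside 7.1%), with ZSCAN5A as the other gene. The median GC content of the members' first windows was 63.2%, with a range from 40.8% to 73.2%, beside 58.0% in all genes, and the median number of CpG dinucleotides was 19, beside 11. All members are protein-coding, while the genes they are set beside were not chosen by gene type or GC content. The part of this in the shares was not tested. These matches describe the letters only, and the arrays do not measure binding.

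Apart from ZKSCAN8, the largest differences among members were those of ZSCAN5A, ZSCAN16, ZSCAN10 and ZKSCAN3, none of which passed the test over all genes. ZSCAN5A lies on chromosome 19 in a group of near copies that includes ZSCAN5B. It had 4.71, 4.60 and 4.54 on the HYAL1-labelled arrays, against 4.45, 4.36 and 4.41 on the control-labelled arrays. The groups were apart, by less than the range within the HYAL1-labelled group, and the difference was 0.21 (SE 0.0493, 95% interval 0.09 to 0.33, limma adjusted p = 0.0934). Its near copy ZSCAN5B, whose transcript could share probes with it, differed by 0.0047 (95% interval −0.16 to 0.17).

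ZSCAN16 had 4.99, 5.02 and 5.09 on the HYAL1-labelled arrays, against 4.75, 4.83 and 5.02 on the control-labelled arrays. Control-labelled replicate 3 reached into the range of the other group, and the difference of 0.17 (SE 0.069) had a limma adjusted p of 0.278. ZKSCAN3, the repressor of autophagy genes, had 5.45, 5.52 and 5.45 on the HYAL1-labelled arrays, against 5.36, 5.42 and 5.32 on the control-labelled arrays. Its groups were apart by a small step, and the difference was 0.11 (SE 0.0392, limma adjusted p = 0.235). The other probe set of ZKSCAN3 differed by 0.02, with overlapping groups. ZSCAN10, the pluripotency factor, had 5.54, 5.33 and 5.36 on the HYAL1-labelled arrays, against 5.25, 5.34 and 5.33 on the control-labelled arrays. HYAL1-labelled replicate 1 stood above the other 5 arrays, the groups overlapped, and the difference was 0.11 (95% interval −0.04 to 0.25).

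**Figure D3:**
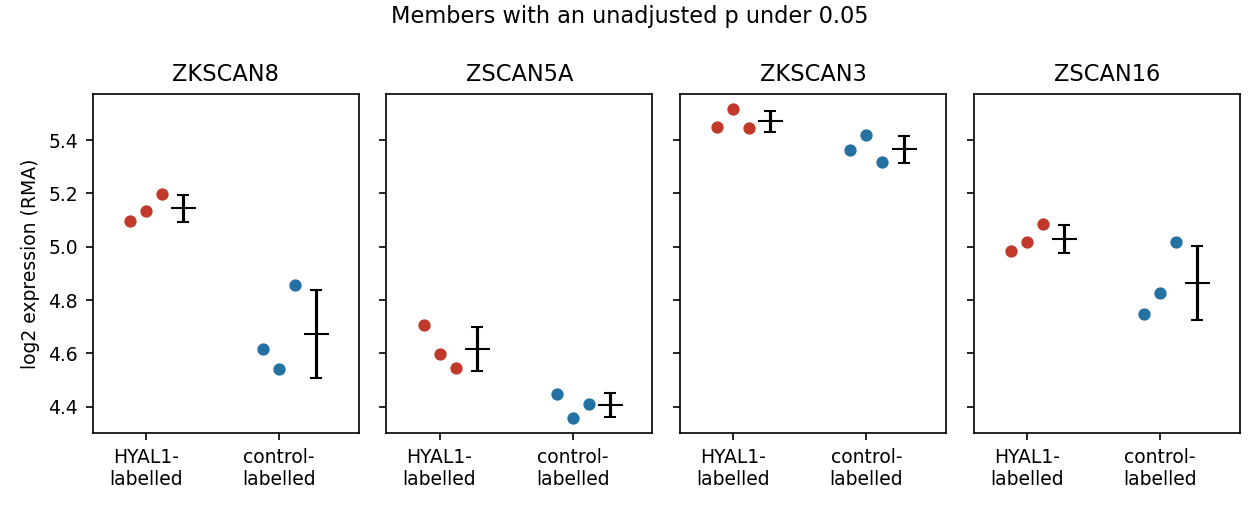
Log2 expression (RMA) on each array for ZKSCAN8, ZSCAN5A, ZKSCAN3 and ZSCAN16, the members with an unadjusted p under 0.05, with HYAL1-labelled arrays left of control-labelled arrays and bars for mean ± SD (n = 3 each). The groups are apart in ZKSCAN8, ZSCAN5A and ZKSCAN3, and in ZSCAN16 the third control-labelled array (5.02) lies within the other group.

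On the lower side, ZSCAN25 was the only member whose groups were apart. It had 6.19, 6.19 and 6.13 on the HYAL1-labelled arrays, against 6.25, 6.28 and 6.21 on the control-labelled arrays. The difference was −0.08 (SE 0.0354, 95% interval −0.16 to 0.01, limma adjusted p = 0.333). ZSCAN4, ZSCAN29, ZSCAN30 and ZSCAN18 followed with differences from −0.05 to −0.03 and overlapping groups. For ZSCAN29 the values were 6.41, 6.38 and 6.31 in the HYAL1-labelled group, against 6.37, 6.49 and 6.39 in the control-labelled group (difference −0.05, 95% interval −0.16 to 0.06). ZSCAN4 had 4.42, 4.36 and 4.34 on the HYAL1-labelled arrays, against 4.58, 4.29 and 4.42 on the control-labelled arrays. The control-labelled arrays lay on both sides of the HYAL1-labelled ones, and 5 of the 6 values were below the lowest background probe set of their array.

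In their probe set of highest mean, the members above or at the background mark differed little between the groups. ZKSCAN1, known as the host gene of a widely expressed circular RNA, had 9.90, 9.83 and 9.87 on the HYAL1-labelled arrays, against 9.85, 9.90 and 9.88 on the control-labelled arrays. The groups overlapped fully, and the difference of −0.01 had a 95% interval from −0.09 to 0.07. ZSCAN18, a gene that is often silenced by promoter methylation in tumours, had 8.999, 8.92 and 8.93 on the HYAL1-labelled arrays, against 8.91, 9.01 and 9.01 on the control-labelled arrays. Its difference was −0.03 (95% interval −0.13 to 0.07). For ZSCAN30, the arrays read 7.64, 7.74 and 7.62 in the HYAL1-labelled group and 7.69, 7.71 and 7.69 in the control-labelled group, a difference of −0.04 (95% interval −0.13 to 0.06). ZSCAN32 averaged 7.68 on the HYAL1-labelled and 7.65 on the control-labelled arrays and differed by 0.04, with overlapping groups. ZKSCAN5, the least bright of the 5, had 7.34, 7.24 and 7.32 on the HYAL1-labelled arrays, against 7.13, 7.35 and 7.27 on the control-labelled arrays. Control-labelled replicates 1 and 2 were its lowest and highest arrays, and the difference was 0.05 (95% interval −0.09 to 0.19). ZSCAN9, at the background mark, had 6.90, 7.07 and 6.99 on the HYAL1-labelled arrays, against 6.95, 7.01 and 7.02 on the control-labelled arrays. Its groups overlapped, with a difference of −0.01 (95% interval −0.13 to 0.11). For the probe set of highest mean, the intervals of these 6 genes thus reached no farther than −0.13 and 0.19. Dimmer probe sets whose groups were apart reached differences of −0.17 in ZKSCAN1, −0.14 in ZSCAN30, −0.12 in ZKSCAN5 and 0.10 in ZSCAN18. None of these was called.

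The remaining members lay below the background median with differences between 0.02 and 0.08. ZSCAN2 was the only one of them whose groups were apart, with 6.57, 6.56 and 6.50 on the HYAL1-labelled arrays, against 6.44, 6.49 and 6.47 on the control-labelled arrays (difference 0.07, SE 0.0344, limma adjusted p = 0.332). ZKSCAN2 had 6.49, 6.55 and 6.37 on the HYAL1-labelled arrays, against 6.38, 6.40 and 6.39 on the control-labelled arrays, so that HYAL1-labelled replicate 3 lay below all of the other group (difference 0.08, 95% interval −0.04 to 0.19). ZSCAN1 and ZSCAN12 differed by 0.07 each, ZSCAN20, ZKSCAN7 and ZKSCAN4 by 0.05 each, ZSCAN22 by 0.03 and ZSCAN26 by 0.02. Leaving ZSCAN2 aside, their adjusted p-values lay between 0.456 for ZKSCAN2 and 0.879 for ZSCAN26 (limma). ZSCAN20 had the widest 95% interval of these genes, from −0.14 to 0.24.

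**Figure D4:**
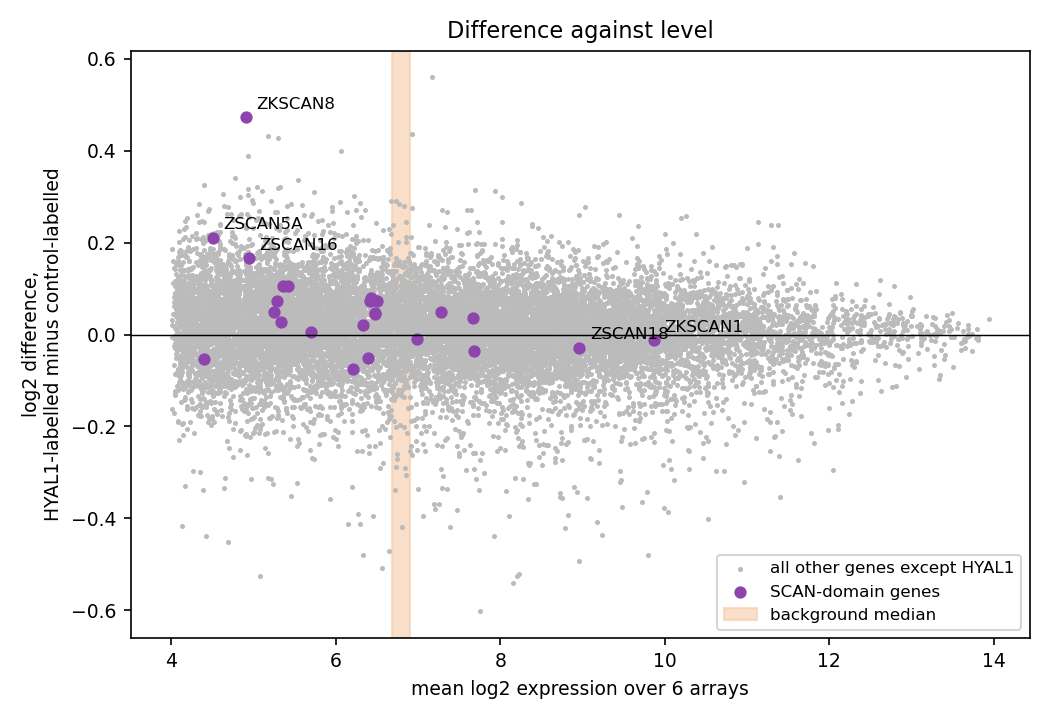
Difference in log2 expression (HYAL1-labelled minus control-labelled) against mean log2 expression over the 6 arrays for all genes except HYAL1 (grey) and for the SCAN-domain genes (purple), with a band at the background median (6.69 to 6.90). ZKSCAN8 (0.47) stands at the upper edge among genes of low level, while the members right of the band lie between −0.04 and 0.05.

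Several members are read by more than 1 probe set, which gives another reading of the same RNA but no further replicate. The 24 genes had 64 probe sets in all, 8 genes with 1 and 16 with several (up to 6). Among these 16, all probe sets were higher in HYAL1-labelled arrays for 8 genes, all were lower for ZSCAN9, and 7 had probe sets on both sides. In total 46 probe sets were higher and 18 lower. When each probe set was tested on its own, 1 of the 64 was called, that of ZKSCAN8, beside 1.42% of all 39341 probe sets on the array.

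Agreement between the probe sets of a gene varied. All 5 probe sets of ZSCAN2 were higher, by 0.06 to 0.11. A dimmer one of the 4 probe sets of ZKSCAN7 had 5.75, 5.80 and 5.84 on the HYAL1-labelled arrays, against 5.61, 5.61 and 5.59 on the control-labelled arrays. Its groups were clearly apart, with a difference of 0.19 (SE 0.0359) and an adjusted p of 0.0531 over all probe sets (limma), while the brightest probe set of the gene differed by 0.05. The name of this dimmer probe set ends in x_at, which marks probes that can also match other transcripts. The probe set that stands for ZSCAN2 and others of that gene have the same ending. The dimmest of the 5 probe sets of ZKSCAN1 had 5.82, 5.82 and 5.67 on the HYAL1-labelled arrays, against 5.93, 6.01 and 5.87 on the control-labelled arrays (difference −0.17, limma adjusted p = 0.198), where the brightest showed a difference of −0.01. One probe set of ZSCAN30 was lower by 0.14 (limma adjusted p = 0.129). For ZSCAN29 the 2 probe sets went opposite ways, by −0.05 for the brighter and 0.15 for the dimmer. The 5 probe sets of ZSCAN26 differed by 0.0031 to 0.14, all with overlapping groups.

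By chromosome, 7 members lie on chromosome 6, 6 on chromosome 19, 3 each on chromosomes 7 and 16, 2 on chromosome 15 and 1 each on chromosomes 1, 3 and 18. The members on chromosome 6 form a cluster next to the histone genes and the major histocompatibility complex. In order along the chromosome, the measured genes of this stretch were ZSCAN16, ZKSCAN8, TOB2P1, ZSCAN9, ZKSCAN4, NKAPL, ZSCAN26, PGBD1, ZKSCAN3 and ZSCAN12. ZSCAN16 and ZKSCAN8, the first genes of the stretch, had the largest differences, of 0.17 and 0.47. From there on the members differed by −0.01 (ZSCAN9), 0.05 (ZKSCAN4), 0.02 (ZSCAN26), 0.11 (ZKSCAN3) and 0.07 (ZSCAN12). The genes between them that are not members gave −0.04 (TOB2P1), −0.11 (NKAPL) and 0.02 (PGBD1), with intervals that included 0. Of these, PGBD1 encodes a SCAN domain under a different symbol. Of the 7 members on this chromosome, 6 were higher in HYAL1-labelled arrays, and 6 lay below the background median. On chromosome 19, 4 of 6 members were higher (median 0.02), on chromosome 16 all 3 were higher (median 0.08), and on chromosome 7 the count was 1 of 3 (median −0.01).

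**Figure D5:**
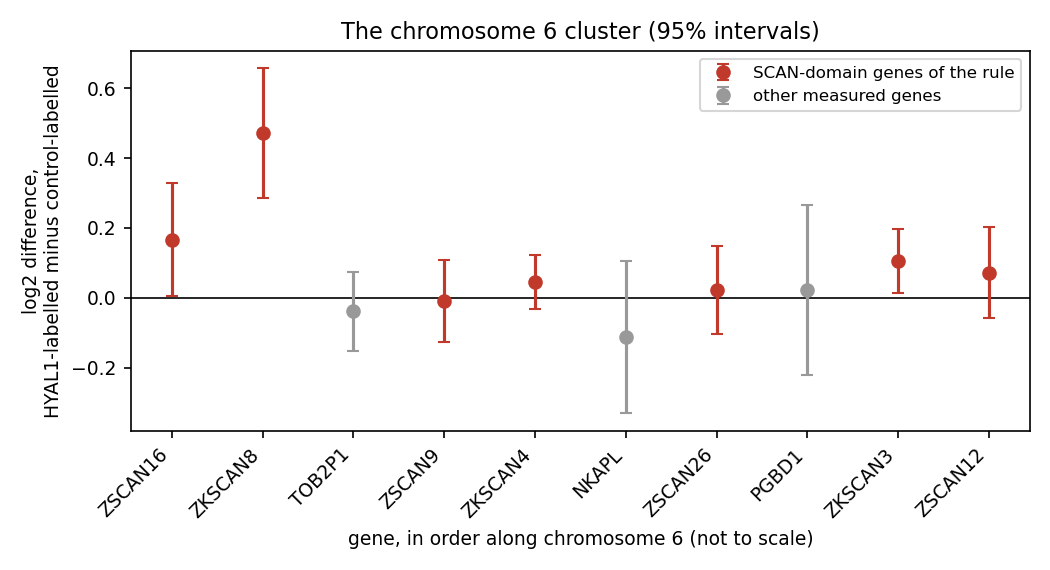
Difference in log2 expression (HYAL1-labelled minus control-labelled) of the genes of the chromosome 6 cluster in their order along the chromosome, with 95% intervals, red for SCAN-domain members and grey for other measured genes. Among the grey genes, PGBD1 encodes a SCAN domain under a different symbol. The interval of ZKSCAN8 starts at 0.29, while those of ZSCAN9, ZKSCAN4, ZSCAN26 and ZSCAN12 and of the grey genes include 0.

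The ZKSCAN and ZSCAN genes were also counted apart, with no test of the difference between them. Of the 7 genes with a KRAB domain in their name, 6 were higher (median 0.05, with ZKSCAN8 as the call), and of the 17 ZSCAN genes 11 were higher (median 0.03, with 0 calls). The larger class of genes whose symbol starts with ZNF, most of them zinc finger genes without a SCAN domain, held 430 measured genes. Of these, 56.7% were higher, with a median difference of 0.01. None of the 430 was called by limma (lowest adjusted p 0.0505), beside 0.445% of all genes called higher and 1.21% called lower. At an unadjusted p under 0.05 there were 30 higher and 21 lower of the 430, beside 9.69% and 7.72% of all genes.

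Other genes that encode a SCAN domain under a different symbol were followed as a list, of which 23 of 29 were measured. By limma 0 were called, beside 0.445% of all genes called higher and 1.21% called lower. At an unadjusted p under 0.05 there was 1 higher and 1 lower of the 23, beside 9.69% and 7.72% of all genes. The list had 17 genes higher in HYAL1-labelled arrays and a median of 0.03. The lowest adjusted p was that of ZNF274, a SCAN and KRAB protein that binds the ends of zinc finger genes and recruits the methyltransferase SETDB1. It had 7.89, 7.86 and 7.90 on the HYAL1-labelled arrays, against 8.04, 8.01 and 8.01 on the control-labelled arrays. The groups were apart, with a difference of −0.14 (SE 0.0297, limma adjusted p = 0.0771). ZNF75D, ZNF215 and ZNF396 differed by 0.13, 0.11 and 0.19, with adjusted p-values of 0.287, 0.305 and 0.321.

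A list of KRAB corepressors and other silencing proteins was measured completely (15 of 15). Of its genes, 1 was called lower and 0 higher, beside 1.21% and 0.445% of all genes. This was MPHOSPH8, a subunit of the HUSH complex that binds methylated histone H3 and silences DNA together with SETDB1. It had 8.69, 8.67 and 8.69 on the HYAL1-labelled arrays, against 8.86, 8.99 and 8.91 on the control-labelled arrays. The arrays of the groups were well apart, and MPHOSPH8 fell by 0.24 on the log2 scale (SE 0.0391, limma adjusted p = 0.0374). With the mean of its 5 probe sets the difference was −0.10 (adjusted p = 0.148), and without any 1 array the adjusted p lay between 0.0657 and 0.147. TRIM28 itself, the direct partner of many KRAB domains, differed by 0.09 (limma adjusted p = 0.342). SMARCAD1, a chromatin remodeller that binds TRIM28, differed by 0.12 (limma adjusted p = 0.233), and CBX1, a heterochromatin protein, by 0.08 (limma adjusted p = 0.329). The list had a median of 0.05, and 10 of its 15 genes were higher.

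Among genes of autophagy, the pathway that ZKSCAN3 represses, 19 of 19 were measured and 0 were called by limma. Of all genes, 0.445% were called higher and 1.21% lower. At an unadjusted p under 0.05 there were 1 higher and 2 lower of the 19, beside 9.69% and 7.72% of all genes, and the median of the list was 0.01, beside 0.01 over all genes. SQSTM1, the autophagy cargo receptor p62, had 12.13, 12.14 and 12.15 on the HYAL1-labelled arrays, against 12.02, 12.03 and 12.04 on the control-labelled arrays. Its groups were apart with little spread, and the difference was 0.11 (adjusted p = 0.116). GABARAPL1 (−0.08, adjusted p = 0.224) and MAP1LC3A (−0.11, 0.258), which encode proteins of the autophagosome membrane, and WIPI1 (−0.07, 0.325), which acts in its formation, were on the other side of 0.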

How the data were processed

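Gene expression was measured on 6 PrimeView arrays of HFL-1 cells, 3 per group. The deposited values are log2 expression estimates that the authors made with Affymetrix Power Tools and RMA (background correction, quantile normalization between arrays, summary per probe set), whose versions are not given in the sources used here. Because of the quantile step, a change of total RNA per cell cannot be seen, and arrays carry no counting depth. Precision is limited by their number.

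Of the 39341 probe sets, 36091 name a single gene, 1397 name several, and none of the probe sets with several genes (0) names a member. The probe set of highest mean stood for each of 15277 genes. Groups follow the labels. The probe set of HYAL1 was named by matching its values to the supplementary table (tolerance 0.001). The other columns of that table, the study's own comparison, were not used. Differences (HYAL1-labelled minus control-labelled) were fitted for all genes with limma 3.58.1 in R 4.3.3 (lmFit and eBayes with 1 prior variance, no covariates, two-sided) and adjusted by Benjamini-Hochberg, with a threshold of 0.05. The scripts were tested on simulated data. Python 3.11.15 (pandas 2.3.3, matplotlib 3.10.9) was used for summaries and plots. Exact permutation of 3 against 3 arrays cannot go below p = 0.10 and was not used.

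The members and lists were chosen with earlier results of these data known. Any member could be named. Full values are given for members called, for the 5 largest differences in each direction, for the 3 highest and 3 lowest levels and for those at background, and for the gene of lowest adjusted p per list, with differences for the next 3. The gene table holds 28 protein-coding ZKSCAN and ZSCAN genes, of which ZSCAN31, ZSCAN23, ZSCAN21 and ZSCAN5C were not analysed here. Promoter motifs were counted in the first listed window of each gene and in all windows. Alternatives changed the probe set per gene, the level filter (30% of genes removed), the normalization, the prior variance, the array weights, the test, the pairing and the arrays. Replicate numbers were not used to pair the arrays in the main fit.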

Additional observations from a re-analysis of the deposited data

How the results depend on the processing

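The direction of ZKSCAN8 was positive in every alternative in which it was tested, but its call was not stable. The difference was 0.46 after renewed quantile normalization (adjusted p = 0.0552), 0.47 with the unpaired t-test (0.160, limma not used) and 0.47 with the replicate block (0.0761), and 0.41 to 0.56 when 1 array was left out (0.0287 to 0.136, called in 1 of 6). It stayed called with limma under median centring (0.0432), the mean of all probe sets (0.0334), a trended prior (0.0023) and array weights (0.0330). The level filter removed it.

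The 253 genes called over the whole array became 751 with the probe set of lowest p, 673 without the 30% of genes of lowest level, 1024 with a trended prior, 1079 with a robust trend, 406 with array weights, 90 with the unpaired t-test and 15 to 52 without 1 array. With the replicate number as a block, 1 gene was called. Deviations of same-numbered arrays from their group means had correlations of 0.06, −0.02 and 0.24. The labels do not say whether same-numbered cultures were handled together, so the block rests on a number only. The split of higher against lower calls was 429 to 595 with the trended prior, 272 to 401 with the filter and 283 to 468 with the probe set of lowest p, beside 68 to 185.

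The count of SCAN-domain members called was 2 with the probe set of lowest p (ZKSCAN7 and ZKSCAN8), and 0 with renewed quantile normalization, the unpaired t-test, the replicate block and the level filter, which left 14 members. Without 1 array it was 0 to 1. Other SCAN genes went to 1 (ZNF274) with the filter, the trend and the robust trend. The list of KRAB corepressors and other silencing proteins went to 0 with the mean of probe sets, the t-test, the block and without any 1 array (0 to 0). Autophagy genes went to 1 (SQSTM1) with the mean of probe sets, the probe set of lowest p, the filter, the robust trend and the t-test, and to 2 with the trend (with GABARAPL1). The cause of these moves was not tested, except that the filter tests fewer genes.

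Signs were not stable for small differences: 11 members changed sign under some alternative, none with a difference over 0.0537 in size, and 13 did not. Of 359 alternative values for the members other than ZKSCAN8, 331 kept sign and side of the threshold and 27 turned. With the probe set of lowest p, ZKSCAN5 had −0.12, ZSCAN18 0.10, ZSCAN22 −0.13, ZSCAN29 0.15 and ZSCAN32 −0.0645. With the mean of probe sets, ZSCAN18 had 0.0309, ZSCAN22 −0.0507 and ZSCAN29 0.0521. Array weights gave ZSCAN20 −0.0026, ZSCAN26 −0.0007 and ZSCAN9 0.02, and ZSCAN5B was −0.01 after quantile normalization and −0.0037 after centring. Leaving out 1 array gave ranges of −0.0282 to 0.0049 for ZKSCAN1, −0.0099 to 0.10 for ZKSCAN5, −0.0157 to 0.12 for ZSCAN20, −0.0237 to 0.0608 for ZSCAN22, −0.0235 to 0.0652 for ZSCAN26, −0.12 to 0.0206 for ZSCAN4, −0.0686 to 0.0679 for ZSCAN5B and −0.0529 to 0.0361 for ZSCAN9. Readings below the background mark, which does not settle whether they hold signal, limit what can be said of the 18 dim members.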

Other observations

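A pair of zinc finger genes that once carried ZKSCAN or ZSCAN symbols, ZFP69 and ZFP69B, was outside the lists and was chosen after the values were seen. ZFP69 had 4.52, 4.31 and 4.38 on the HYAL1-labelled arrays, against 4.33, 4.25 and 4.02 on the control-labelled arrays. The groups overlapped, all values lay below the lowest background probe set of their array, and the difference was 0.21 (limma adjusted p = 0.280). ZFP69B had means of 5.79 on the HYAL1-labelled and 5.70 on the control-labelled arrays, and differed by 0.09 (limma adjusted p = 0.301).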
